A study of Mus musculus with 15 samples.

Results

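Spp1, Pkd2, Zfp33b, Gbp9, Gbp4, Gbp10, Gbp11 and Lrrc8b lie in this order on mouse chromosome 5 (GRCm38), from 104435111, the start of Spp1, to 105490079, the end of Lrrc8b, and their levels were followed across 2 brain regions and 2 mouse lines. They are 8 of 26628 genes in the deposited table, were taken by symbol, and had been picked as neighbours with line differences in these same samples, so every line difference of the 8 genes below is a description without a test. All 8 passed the filter on low values, with 15213 genes tested in all. Zfp33b passed only through the selected line, and Gbp10 and Gbp11 only through the control line, so these 3 had to differ between lines to be tested at all.

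The samples were whole cerebellum (Ce) and whole striatum (St) of male Hsd:ICR mice, labelled as 6 weeks old, from a line bred for high voluntary wheel running (Hi, line 7) and an unselected control line (Co, line 1). RNA sequencing gave 4 CeCo, 4 CeHi, 4 StCo and 3 StHi samples, 1 further StHi sample having been removed by the authors. Mice of both lines had a running wheel in the cage for several days before dissection, so access to a wheel was shared by all 4 groups while the distance run was not, being greater in the Hi line. Each line type is a single breeding line, so selection, the genetic background of line 7 against line 1 and the running itself cannot be told apart, and the labels do not say which Ce and St samples came from the same mouse. Which samples are Hi and which are Co was taken from the labels of the deposited columns, and the direction of every line difference rests on them, as no gene in the table checks the line. The samples held between 32909383 and 47485535 fragments, and 1 fragment was worth between 0.841 and 1.30 of the normalized counts given below. The dissections matched their labels: summed over 6 cerebellar markers, the Ce samples held 176400 to 205700 normalized counts against 11400 to 15660 in the St, and 5 striatal markers held 115900 to 159600 in the St against 5150 to 6847 in the Ce.

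Spp1 encodes osteopontin, a secreted phosphoprotein of the SIBLING family that binds integrins and CD44 and that in brain is made by some large neurons and by activated microglia. Pkd2 encodes polycystin-2, a cation channel of the cilium and endoplasmic reticulum. Zfp33b is a zinc finger gene. The Gbp genes encode guanylate-binding proteins, large GTPases that are induced by interferon-gamma and act against intracellular pathogens, and mice carry them in 2 clusters, on chromosomes 3 and 5. Lrrc8b encodes a subunit of the LRRC8 volume-regulated anion channels, which open when a cell swells.

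The Gbp genes of the segment are close copies, and how alike they are bears on how their reads can be assigned. Over aligned coding bases of the GENCODE M21 transcripts, Gbp10 and Gbp6 were 98.4% identical, and every other pair among Gbp4, Gbp6, Gbp8, Gbp9, Gbp10 and Gbp11 was between 88.9% and 93.3% identical. Gbp10 and Gbp6 differed at 30 of 1833 coding bases, and the longest run without a difference was 421 bases. The 90 bases within 1 exon at which the pair differed most often are shown from the minus strand of GRCm38, 5′ to 3′, with the 12 differing bases in capitals.
Gbp10 (chr5:105218392-105218481): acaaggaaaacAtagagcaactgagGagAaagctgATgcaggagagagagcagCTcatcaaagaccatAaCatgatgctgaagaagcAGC
Gbp6 (chr5:105274192-105274281): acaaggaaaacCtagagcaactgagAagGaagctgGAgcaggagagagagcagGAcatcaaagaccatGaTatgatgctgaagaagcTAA

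A second stretch of 90 bases, close to the end of the reading frame, is shown for the 5 Gbp genes that passed the filter, with the bases unlike Gbp10 in capitals. Gbp6 differed from Gbp10 at 1 base there, Gbp9 and Gbp11 at 15 each, and Gbp4 at 21.
Gbp10 (chr5:105217399-105217488): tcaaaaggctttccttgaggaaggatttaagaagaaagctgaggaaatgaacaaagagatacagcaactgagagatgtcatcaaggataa
Gbp6 (chr5:105273196-105273285): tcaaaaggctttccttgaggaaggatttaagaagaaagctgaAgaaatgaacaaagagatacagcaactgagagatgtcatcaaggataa
Gbp11 (chr5:105323909-105323998): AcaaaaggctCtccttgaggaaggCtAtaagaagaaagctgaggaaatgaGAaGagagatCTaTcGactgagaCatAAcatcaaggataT
Gbp4 (chr5:105118408-105118497): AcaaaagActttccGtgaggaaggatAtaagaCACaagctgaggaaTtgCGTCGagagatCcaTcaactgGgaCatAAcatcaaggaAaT
Gbp9 (chr5:105080173-105080262): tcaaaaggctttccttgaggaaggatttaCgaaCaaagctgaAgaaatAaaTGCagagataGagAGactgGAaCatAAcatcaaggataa

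Of all 100-base windows of the Gbp10 transcripts, 60.9% also occurred in a transcript of another gene of the table, nearly all of them in Gbp6, which held 60.1%. The share was 5.13% for Gbp11, 1.65% for Gbp9 and 1.64% for Gbp4. No window of Spp1, Pkd2 or Lrrc8b was shared at 100 bases. The level of Gbp10 is therefore given below also as a sum with Gbp6, since the counting could have split reads between them. Zfp33b is absent from the transcript set used here, so its share and its length were not computed.

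The upstream sequences of Spp1 and Zfp33b are shown because these genes had the largest excess in the Hi line. They are the 250 bases before a transcript start listed in RefSeq (GRCm38.p6, plus strand), and capitals mark a match to a motif fixed for the search. For Spp1 the start is the first of 2 listed. For Zfp33b it lies inside the span of the gene, which RefSeq begins at 104570575. RefSeq promoters were matched for 4 of the 8 genes. Those of Gbp4, Gbp9, Gbp10 and Gbp11 were not used here.
Spp1 (chr5:104434861-104435110): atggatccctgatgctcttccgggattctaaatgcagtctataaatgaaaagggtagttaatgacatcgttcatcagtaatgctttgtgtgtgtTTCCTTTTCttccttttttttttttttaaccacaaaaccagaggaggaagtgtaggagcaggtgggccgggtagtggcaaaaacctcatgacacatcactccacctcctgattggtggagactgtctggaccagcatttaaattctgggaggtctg
Zfp33b (chr5:104571422-104571671): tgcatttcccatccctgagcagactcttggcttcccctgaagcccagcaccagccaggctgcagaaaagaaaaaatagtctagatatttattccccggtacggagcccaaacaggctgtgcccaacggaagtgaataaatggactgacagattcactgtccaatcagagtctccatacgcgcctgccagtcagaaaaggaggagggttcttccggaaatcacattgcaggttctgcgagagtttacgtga

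The 2 motifs searched on both strands were the core of the interferon-stimulated response element, written GAAANNGAA, and the gamma-activated site, written TTCNNNGAA. Spp1 held 1 match to the first, on the minus strand, and none to the second, and the window before the other Spp1 start held none of either. Zfp33b held none of either. Among 32851 promoter windows of 250 bases, 7.13% held the first motif and 7.02% the second.

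By the labels of the deposited columns, Spp1 had the higher level in the Hi line in both regions. The study's text gives the opposite direction, with Spp1 lower in Hi than in Co in both regions. The study's list of line effects across both regions gives Zfp33b, another gene of the segment, as higher in Hi, as the labels do. The conflict for Spp1 was not resolved here. The normalized counts of Spp1 in the CeCo samples were 503, 452, 596 and 420.4, and in the CeHi samples 1278, 1159, 1082 and 898. In the striatum they were 81.5, 65.3, 78.8 and 44.8 in StCo and 486, 248 and 205 in StHi. The lines did not overlap in either region, and the first StHi sample lay well above the other 2. The mean was 2.24-fold higher in CeHi (1104 ± 159, SD, n = 4) than in CeCo (493 ± 77.0, SD, n = 4) and 4.63-fold higher in StHi (313 ± 152, SD, n = 3) than in StCo (67.6 ± 16.8, SD, n = 4). On the scale of log2(normalized count + 1), which is used for every log2 value here, the line difference (Hi minus Co) was 1.16 (SE 0.24) in the Ce and 2.12 (SE 0.26) in the St. The cerebellar difference minus the striatal one was -0.97 (SE 0.35), and without the first StHi sample it was -0.60 (SE 0.27). In whole tissue, a change in the number of expressing cells and a change in the RNA of each cell cannot be told apart.

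Cell type markers were read beside Spp1, and some moved with it in part. The summed level of 4 markers of brainstem and large projection neurons was 14340 to 17820 normalized counts in CeHi against 12210 to 14430 in CeCo. The StHi sample with the highest Spp1 also had the highest sum in the striatum, 16810. The other StHi samples held 12470 and 12880, and the StCo samples held 10690 to 15200. None of these 4 markers passed the line test by limma or edgeR, and 1 in each region had an unadjusted P-value under 0.05 by limma. Nefm had the highest mean in the St, at 8343 in StCo and 8464 in StHi. Slc17a6 had means of 968 in StCo and 1958 in StHi, a difference of 1.06 (SE 0.38, FDR-adjusted P-value = 0.196, limma). In the St, Nefh was at 0.29, Nefm at 0.02 and Slc6a5, near the floor there, at -0.66. The summed microglial markers spanned 3150 to 4186 in CeHi and 3288 to 3936 in CeCo, and 14590 to 15680 in StHi and 14520 to 15890 in StCo. Of 8 microglial markers only C1qb, a complement component, passed, against 7.24% of all genes in either region. C1qb was higher in Hi by 0.39 (SE 0.08) in the Ce (FDR-adjusted P-value = 0.00518, limma) and by 0.44 (SE 0.08) in the St (FDR-adjusted P-value = 0.00582, limma). The others did not share a direction. Csf1r and C1qa were higher in Hi in both regions, Cx3cr1, P2ry12 and Itgam lower in both, and Aif1 and Tmem119 changed sign between regions. By limma, 4 of the 8 in the Ce and 3 in the St had an unadjusted P-value under 0.05. Choroid plexus markers were uneven, at 1017 to 115900 across the Ce and up to 17950 in StHi against 1774 in StCo. The StHi sample highest in Spp1 held 1772. Oligodendrocyte markers summed to 267700 to 307400 in StHi and 175100 to 256800 in StCo, and none of the 4 passed by limma or edgeR, with 2 in the Ce and 3 in the St at an unadjusted P-value under 0.05 by limma. The 2 blood markers in the table summed to 1048 to 1173 in StHi and 550.3 to 936 in StCo, without overlap, and to 1369 to 3657 in CeHi and 880 to 2196 in CeCo. Astrocyte markers summed to 90300 to 101600 in CeHi and 83820 to 94230 in CeCo, and to 37330 to 42490 in StHi and 39200 to 40950 in StCo. Endothelial markers summed to 4058 to 4624 in CeHi and 3807 to 4629 in CeCo, and to 4008 to 5136 in StHi and 3774 to 5399 in StCo. Of 6 cerebellar markers, 2 passed in the St, both higher in Hi, as were 1.49% of all genes. They were Cbln1, at 0.51 (SE 0.12, FDR-adjusted P-value = 0.0262, limma), and En2, at 1.41 (SE 0.26, FDR-adjusted P-value = 0.00983, limma). The others did not pass in the St, at 0.55 for Pcp2, 0.26 for Calb1, -0.12 for Zic1 and -0.04 for Gabra6. The 6 together summed to 12800 to 15660 in StHi and 11400 to 14690 in StCo. Most of this sum was Calb1, with means of 10270 in StCo and 12170 in StHi, so it says little of the others. Cbln1 had means of 380 in StCo and 538 in StHi, and En2 of 42.5 and 124. The part of any of these cell types in the Spp1 difference was not tested.

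Pkd2 was higher in the Hi line in the cerebellum. Its normalized counts were 2187, 2419, 2211 and 2198 in CeCo and 3325, 3332, 3203 and 2781 in CeHi. The striatal values were 1914, 2238, 2110 and 2245 in StCo and 2141, 2564 and 2445 in StHi. All CeHi samples lay above all CeCo samples, whereas in the striatum 2 of 3 StHi samples lay above the StCo samples and the lines overlapped. The mean was 1.40-fold higher in CeHi (3160 ± 260, SD, n = 4) and 1.12-fold higher in StHi (2383 ± 218, SD, n = 3). The log2 line difference was 0.48 (SE 0.07) in the Ce and 0.16 (SE 0.08) in the St, and the first minus the second was 0.32 (SE 0.11). Without the second StHi sample the striatal value was 0.10 (SE 0.09).

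Zfp33b was near the floor in the control line and well above it in the Hi line. The CeCo samples held 6.52, 9.81, 15.4 and 8.91 normalized counts and the CeHi samples 241, 229, 204 and 201. The StCo samples held 8.64, 5.93, 9.45 and 5.48 and the StHi samples 158, 162 and 197. The highest control sample, at 15.4, lay far below the lowest Hi sample, at 158. The mean was 21.5-fold higher in CeHi (219 ± 19.7, SD, n = 4) than in CeCo (10.2 ± 3.74, SD, n = 4) and 23.4-fold higher in StHi (172 ± 21.4, SD, n = 3) than in StCo (7.38 ± 1.96, SD, n = 4). In log2 the line difference was 4.35 (SE 0.23) in the Ce and 4.39 (SE 0.25) in the St, and the first minus the second was -0.04 (SE 0.34).

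**Figure D1:**
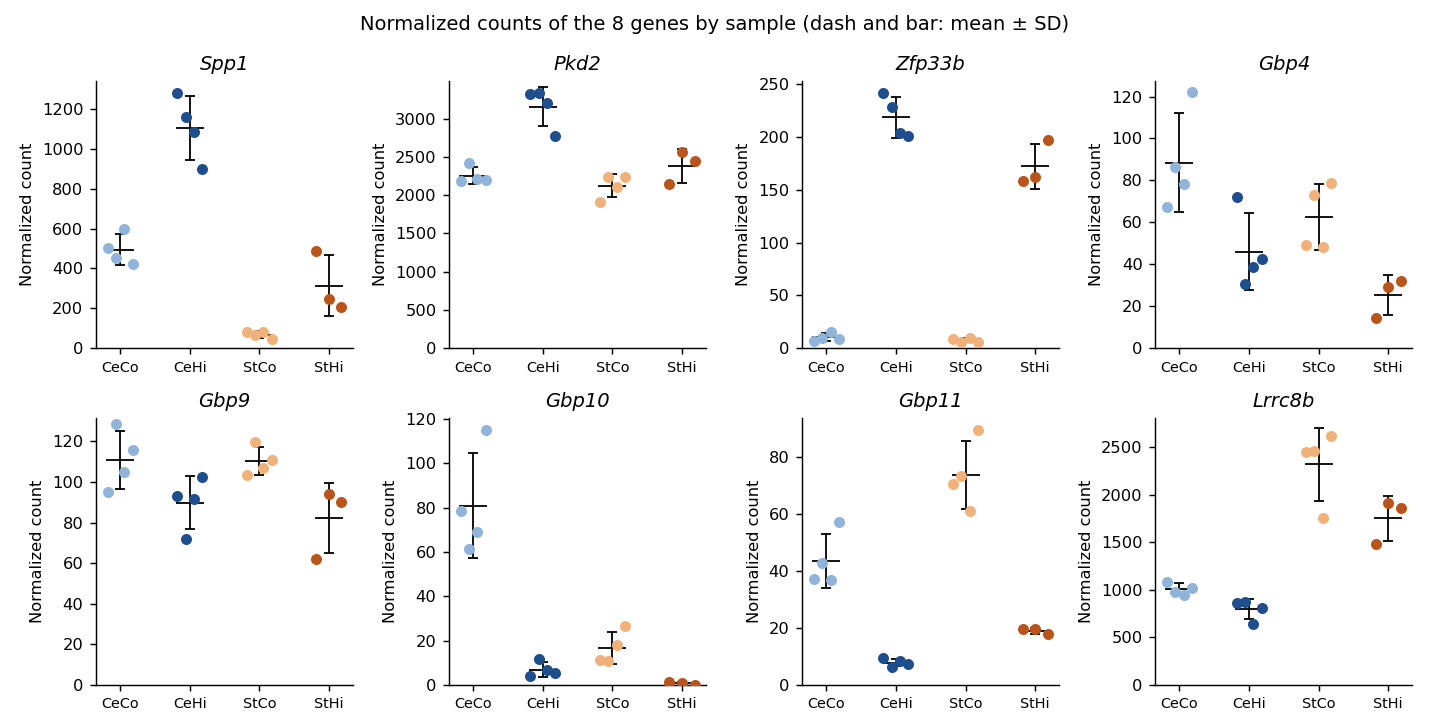
Normalized counts (vertical axes, from 0) of the 8 genes in each sample of the 4 groups (horizontal axes), with the mean as a dash and the SD as a bar. Spp1 and Zfp33b stand higher in the Hi samples of both regions, Gbp10 and Gbp11 lower, and Zfp33b in the control samples does not pass 15.4.

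The 4 Gbp genes went the other way, with Gbp10 and Gbp11 lowest in the Hi line. Gbp10 held 78.3, 61.5, 69.1 and 115 normalized counts in CeCo and 4.204, 11.6, 6.48 and 5.28 in CeHi. In the striatum it held 11.1, 10.9, 17.9 and 26.5 in StCo and 1.30, 0.97 and 0 in StHi. The lines did not overlap in either region, and each StHi sample held at most 1 fragment. The mean was 11.7-fold lower in CeHi (6.89 ± 3.28, SD, n = 4) than in CeCo (81.0 ± 23.6, SD, n = 4). Because the StHi samples were at or under 3 fragments each, the fold in the striatum is a bound: with 3 fragments per library taken as the floor, a mean of 3.46 normalized counts, Gbp10 was at least 4.80-fold lower in StHi than in StCo. The fitted log2 line difference was -3.42 (SE 0.38) in the Ce. The striatal value of -3.33 (SE 0.41) rests on the added count of 1, and with 0.1 added it was -4.88.

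Gbp11, which RefSeq annotates as a transcribed pseudogene, held 37.3, 42.8, 36.7 and 57.0 normalized counts in CeCo and 9.25, 6.33, 8.34 and 7.40 in CeHi. The striatal values were 70.4, 73.2, 60.9 and 89.6 in StCo and 19.5, 19.4 and 17.8 in StHi. The lines were apart in both regions. The mean was 5.55-fold lower in CeHi (7.83 ± 1.25, SD, n = 4) and 3.89-fold lower in StHi (18.9 ± 0.940, SD, n = 3), with log2 line differences of -2.33 (SE 0.20) and -1.90 (SE 0.22).

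Gbp4 and Gbp9 differed less. Gbp4 held 67.1, 86.5, 78.5 and 122 normalized counts in CeCo, and 72.3, 30.6, 38.9 and 42.3 in CeHi. In StCo it held 49.4, 73.2, 48.3 and 78.6, and in StHi 14.3, 29.1 and 32.1. The striatal samples of the lines did not overlap, while in the cerebellum the first CeHi sample lay within the control range. The mean was 1.92-fold lower in CeHi (46.0 ± 18.2, SD, n = 4) and 2.48-fold lower in StHi (25.2 ± 9.54, SD, n = 3), and the log2 line differences were -0.97 (SE 0.29) and -1.33 (SE 0.32).

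Gbp9 was the least different of the 4. It held 95.1, 128, 104.9 and 116 normalized counts in CeCo and 93.3, 71.7, 91.7 and 103 in CeHi. The striatal samples held 103.7, 120, 107 and 111 in StCo and 62.3, 94.2 and 90.2 in StHi. In the striatum all 3 StHi samples lay below the StCo samples, and in the cerebellum 3 of 4 CeHi samples lay below all CeCo samples. The mean was 1.24-fold lower in CeHi (89.8 ± 13.0, SD, n = 4) and 1.34-fold lower in StHi (82.2 ± 17.4, SD, n = 3), and the log2 line differences were -0.31 (SE 0.15) and -0.45 (SE 0.17). The first was -0.20 (SE 0.16) without the second CeHi sample, and the second was -0.26 (SE 0.16) without the first StHi sample.

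Gbp6, the near copy of Gbp10, is not one of the 8 genes. It held 147, 166, 125 and 187 normalized counts in CeCo and 191, 172, 213 and 162 in CeHi. In StCo it held 28.4, 9.89, 25.2 and 36.6, and in StHi 38.9, 46.6 and 21.4. The lines overlapped in both regions, and the log2 line difference was 0.24 (SE 0.31) in the Ce and 0.55 (SE 0.34) in the St. Summed over Gbp6 and Gbp10, the level was 237 ± 45.6 (SD, n = 4) in CeCo and 191 ± 22.1 (SD, n = 4) in CeHi, with ranges of 194.5 to 302 and 167 to 219.5 that overlapped. The sum was 41.6 ± 17.3 (SD, n = 4) in StCo and 36.4 ± 13.5 (SD, n = 3) in StHi, which overlapped too. Gbp10 made up 27.1% to 38.1% of this sum in the CeCo samples and 2.16% to 6.32% in the CeHi samples. In the striatum its share was 28.1% to 52.4% in StCo and at most 3.23% in StHi. Whether reads of 1 gene were counted for the other was not tested.

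Summed over the 6 Gbp genes of the segment, Gbp8 included, the level was 483 ± 84.2 (SD, n = 4) in CeCo, 337 ± 34.9 (SD, n = 4) in CeHi, 290.1 ± 38.6 (SD, n = 4) in StCo and 164 ± 28.6 (SD, n = 3) in StHi. Within this sum the share of Gbp6 was 32.4% in CeCo and 54.7% in CeHi, and 8.60% in StCo and 22.0% in StHi. Gbp9 held the largest share in the striatum, 38.4% in StCo and 50.1% in StHi. Per kilobase of annotated exon, the CeCo order was Gbp6 (26.3 ± 4.41 normalized counts per kilobase), Gbp9 (21.5 ± 2.77), Gbp10 (20.9 ± 6.10), Gbp11 (16.1 ± 3.51) and Gbp4 (11.8 ± 3.16, SD, n = 4 for each). Gbp9 and Gbp10 lay within 1 SD of each other in CeCo. In StHi the order was Gbp9 (15.9 ± 3.37 normalized counts per kilobase), Gbp11 (7.02 ± 0.349), Gbp6 (5.98 ± 2.17), Gbp4 (3.36 ± 1.27) and Gbp10 (0.195 ± 0.174, SD, n = 3 for each), and Gbp11 and Gbp6 lay within 1 SD of each other.

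**Figure D2:**
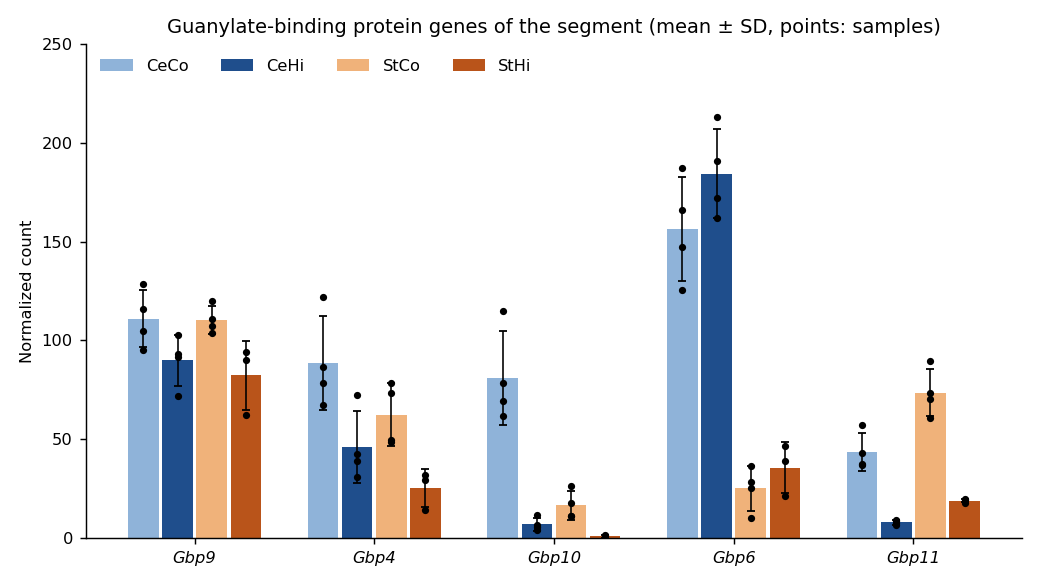
Normalized counts (vertical axis, from 0) of 5 Gbp genes in the order of their positions (horizontal axis), as the mean of each group (bars), the SD (error bars) and the samples (points). The Hi bars are lower than the Co bars for Gbp9, Gbp4, Gbp10 and Gbp11 in both regions, and the Gbp6 samples of the lines overlap.

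Lrrc8b was moderately lower in the Hi line. Its normalized counts were 1085, 979.8, 944 and 1018 in CeCo and 859, 876, 639 and 811 in CeHi. In the striatum they were 2448, 2461, 1750.5 and 2619 in StCo and 1480.0, 1914 and 1862 in StHi. The cerebellar samples of the lines did not overlap, and in the striatum the third StCo sample lay within the range of StHi. The mean was 1.26-fold lower in CeHi (796 ± 108, SD, n = 4) and 1.32-fold lower in StHi (1752 ± 237, SD, n = 3). The log2 line differences were -0.35 (SE 0.13) and -0.40 (SE 0.14).

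Over the 8 genes, the cerebellar samples of the lines did not overlap for 3 genes higher in Hi (Spp1, Pkd2 and Zfp33b) and 3 higher in Co (Gbp10, Gbp11 and Lrrc8b). Of all genes tested, 6.88% were so separated with Hi higher and 6.44% with Co higher. In the striatum the counts were 2 genes higher in Hi (Spp1 and Zfp33b) and 4 higher in Co (Gbp4, Gbp9, Gbp10 and Gbp11), against 7.20% and 5.87% of all genes. The line test called 2.94% of all genes higher in Hi and 2.99% higher in Co in the Ce, and 1.49% and 1.17% in the St. As the 8 genes were picked on these differences, nothing is read from their counts.

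Between Spp1 and Lrrc8b, the other genes past the filter had line differences of at most 0.55 in size. The table held 16 genes of this interval, of which 12 passed the filter: the 8 genes, Gbp6, the zinc finger gene Zfp951, and 2 overlapping gene models, D930016D06Rik (Thoc2l in RefSeq) and BC005561. The log2 line difference was 0.18 (SE 0.09) in the Ce and -0.32 (SE 0.10) in the St for D930016D06Rik, 0.08 (SE 0.14) and -0.49 (SE 0.15) for BC005561, and 0.12 (SE 0.27) and -0.07 (SE 0.29) for Zfp951. D930016D06Rik and BC005561 share their start and reads could have been counted for either. Of the 4 genes under the filter, Gm20385 held 0.853 to 0.932 normalized counts in CeCo and 5.27 to 9.26 in CeHi, and at most 0.914 in StCo and 1.19 to 7.77 in StHi. Gm9640, a pseudogene, was listed at 0 in all 7 Hi samples and at no more than 2.74 in Co. Gm20385 lies beyond Zfp33b on the same side of the Gbp genes. Zfp33b was higher in every Hi sample than in any Co sample of the same region, and Gm20385 was so in the Ce. In the St, the lowest StHi sample and the highest StCo sample of Gm20385 each held 1 fragment, so their order rests on the scaling alone.

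Within 2 Mb on either side, 4 of 18 genes tested (22.2%) passed the line test in 1 or both regions, against 7.24% of all genes. Before Spp1, 9 genes were tested and 3 passed in a line comparison. Aff1, a subunit of the transcription elongation machinery, was higher in Hi by 0.53 (SE 0.08) in the St (FDR-adjusted P-value = 0.000826, limma). Hsd17b11, a steroid dehydrogenase of lipid droplets, was higher by 0.29 (SE 0.07) in the Ce (FDR-adjusted P-value = 0.0298, limma), and Nudt9, an ADP-ribose hydrolase, was lower, at -0.22 (SE 0.06) in the Ce (FDR-adjusted P-value = 0.0436, limma). After Lrrc8b, 9 genes were tested and 1 passed: Lrrc8d, which encodes another LRRC8 subunit, was lower in Hi, at -0.27 (SE 0.06) in the Ce (FDR-adjusted P-value = 0.00679, limma). The median log2 line difference was 0.05 for the Ce and 0.12 for the St before Spp1, and -0.07 and 0.03 after Lrrc8b, against -0.00214 and -0.00464 over all genes tested.

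**Figure D3:**
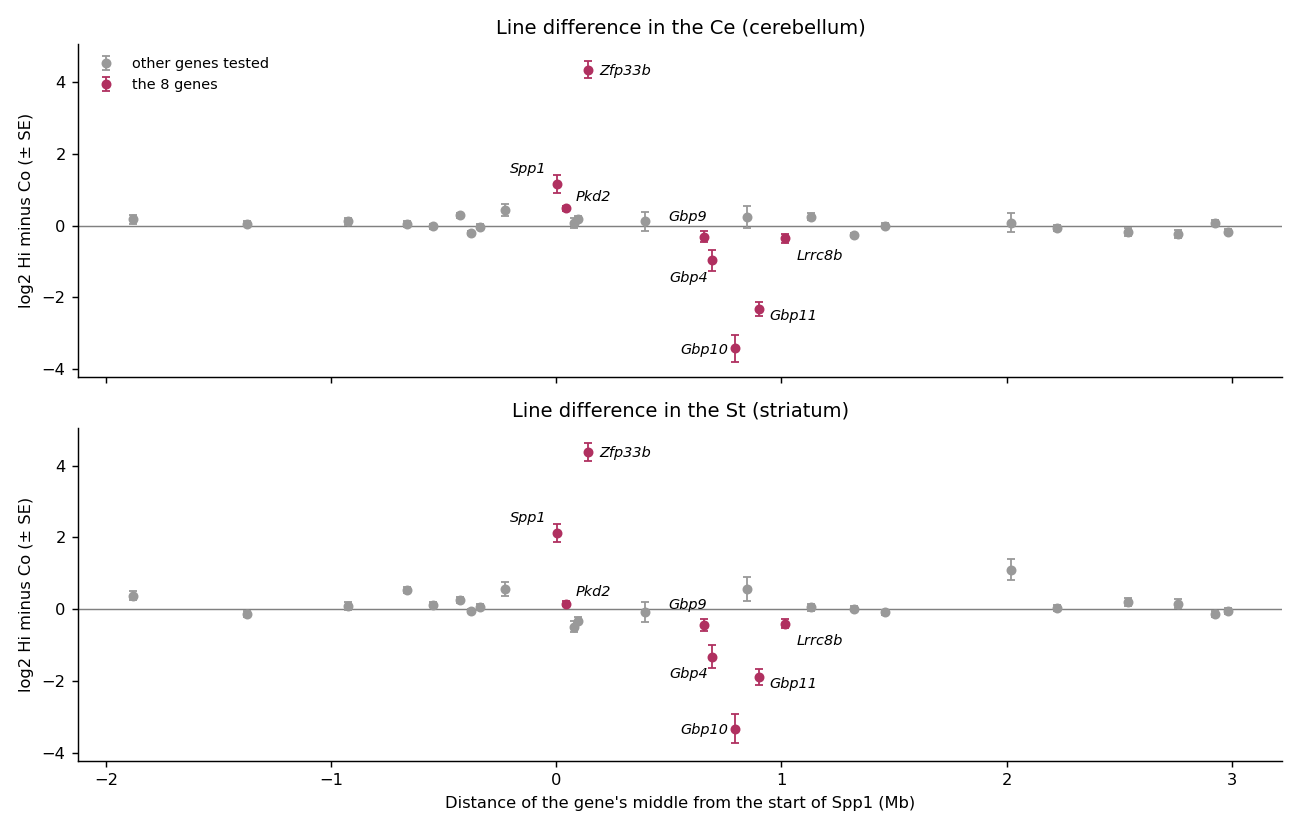
Log2 line difference (vertical axes, Hi minus Co, bars ± SE) of each gene tested against the distance of its middle from the start of Spp1 in Mb (horizontal axis), in the Ce (upper) and the St (lower). The 8 genes reach from 4.35 for Zfp33b to -3.42 for Gbp10 in the Ce, and the 4 genes past the test outside the segment lie within 0.53 of 0.

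The regions were compared next, and the choice of the 8 genes did not use the region difference as a mean over both lines. The region differences within each line share group means with the line differences on which the genes were picked. Their P-values are therefore not independent of that choice. The filter on low values bore on the region comparison for 2 of the 8 genes, since Gbp10 passed only through CeCo samples and Gbp11 only with the StCo samples. For these 2 the difference is given with no filter on low values. The other 6 genes reached a CPM of 1 in at least 3 samples of each region. By limma, 3 of these 6 were higher in the Ce and 1 was higher in the St as a mean over both lines, while 40.6% of all genes tested were higher in the Ce and 39.6% in the St. Spp1 was higher in the Ce by 2.39 (SE 0.18, FDR-adjusted P-value = 4.74e-09, limma). Gbp4 was higher in the Ce by 0.67 (SE 0.22, FDR-adjusted P-value = 0.00893, limma) and Pkd2 by 0.24 (SE 0.05, FDR-adjusted P-value = 0.000459, limma). Lrrc8b was lower in the Ce, at -1.17 (SE 0.09, FDR-adjusted P-value = 5.37e-09, limma). Gbp9 did not pass the test between regions, at 0.07 (SE 0.11, FDR-adjusted P-value = 0.6, limma).

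Gbp10 and Gbp11 differed between regions in opposite directions. In the fit with no filter, Gbp10 was higher in the Ce by 2.23 (SE 0.27, FDR-adjusted P-value = 8.6e-07, limma) and Gbp11 was lower, at -0.95 (SE 0.14, FDR-adjusted P-value = 1.34e-05, limma). The mean of Gbp10 was 4.88-fold higher in CeCo than in StCo, and it was at least 2.0-fold higher in CeHi than in StHi, where it was at the floor. Gbp11 was 1.69-fold higher in StCo than in CeCo and 2.41-fold higher in StHi than in CeHi. Gbp6, which was mostly under a CPM of 1 in the St, had 156 ± 26.3 normalized counts in CeCo (SD, n = 4) and 25.0 ± 11.2 in StCo (SD, n = 4).

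Within lines, 2 of the same 6 genes passed between regions in Co, where 74.7% of all genes did, and 4 passed in Hi, where 70.5% did. Spp1 and Lrrc8b passed in both lines. The Spp1 difference was 2.87 (SE 0.24, FDR-adjusted P-value = 3.04e-08, limma) in Co and 1.90 (SE 0.26, FDR-adjusted P-value = 9.12e-06, limma) in Hi. Pkd2 was at 0.08 (SE 0.07, FDR-adjusted P-value = 0.32, limma) in Co and 0.40 (SE 0.08, FDR-adjusted P-value = 0.000185, limma) in Hi. Whether the region difference itself differed between lines is the same contrast as the difference of both line differences, for which no test is given. A pass in Hi but not in Co is therefore not read as a difference between lines. Gbp4 passed in Hi at 0.85 (SE 0.32, FDR-adjusted P-value = 0.0244, limma) but not in Co at 0.49 (SE 0.29, FDR-adjusted P-value = 0.137, limma), and the call in Hi was lost without the first CeHi sample (FDR-adjusted P-value = 0.0894, limma) or the first StHi sample (FDR-adjusted P-value = 0.172, limma).

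Zfp33b was near the threshold between regions. Its mean difference was 0.36 (SE 0.17, FDR-adjusted P-value = 0.0613, limma), and it did not pass within either line, at 0.38 in Co (FDR-adjusted P-value = 0.145, limma) and 0.34 in Hi (FDR-adjusted P-value = 0.235, limma). The mean difference passed by edgeR's quasi-likelihood test on the recovered fragments (FDR-adjusted P-value = 0.033), and by limma without the first CeCo sample (FDR-adjusted P-value = 0.0178), the first StCo sample (FDR-adjusted P-value = 0.047) or the third StCo sample (FDR-adjusted P-value = 0.0338). Without the first CeCo sample the difference in Co passed too (FDR-adjusted P-value = 0.0374, limma).

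**Figure D4:**
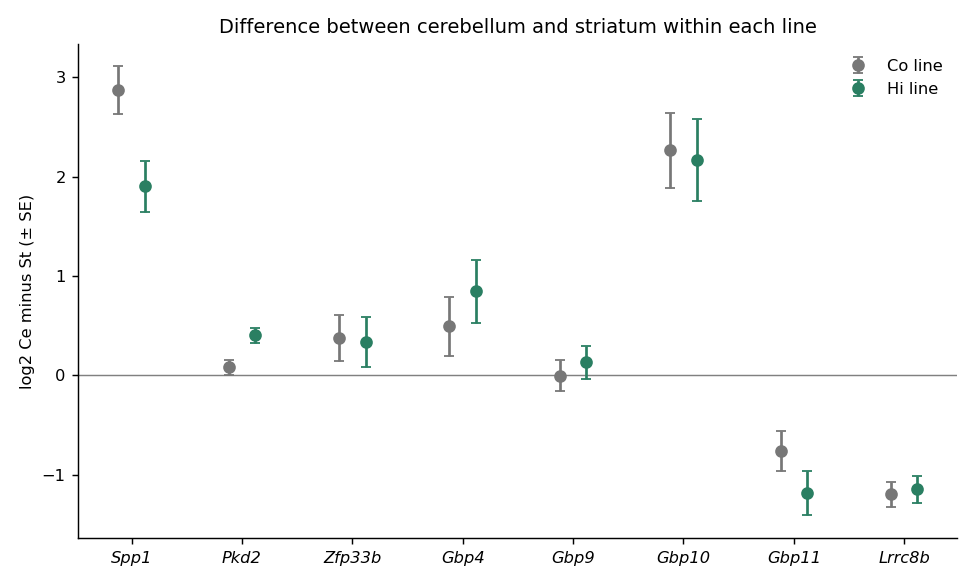
Log2 region difference (vertical axis, Ce minus St, bars ± SE) of the 8 genes (horizontal axis) in the Co line (grey) and the Hi line (green). Spp1 and Gbp10 lie above 0 in both lines, up to 2.87 for Spp1 in Co, and Gbp11 and Lrrc8b lie below 0 in both, down to -1.19.

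Genes that work with the 8 were taken from lists and compared between lines. Of the guanylate-binding protein genes on chromosome 3, 4 were tested (Gbp2, Gbp3, Gbp5 and Gbp7) and none passed in either region by limma or edgeR, while 3 in the Ce and 0 in the St had an unadjusted P-value under 0.05 by limma. Their log2 line differences were -0.52, -0.48, -0.51 and -0.29 in the Ce, with SE from 0.15 to 0.21, and -0.13, -0.31, -0.05 and -0.12 in the St. The medians were -0.50 and -0.12.

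Of 36 interferon response genes on the list, 27 were tested. In the Ce, 4 passed as lower in Hi, and 2 of these passed as lower in the St too. None passed as higher. Of all genes, 2.99% in the Ce and 1.17% in the St passed as lower. Ifit2, an antiviral protein that binds RNA, was lower, at -1.17 (SE 0.18, FDR-adjusted P-value = 0.000802, limma) in the Ce and -1.19 (SE 0.20, FDR-adjusted P-value = 0.00244, limma) in the St. Iigp1, an immunity-related GTPase, was lower, at -2.11 (SE 0.32, FDR-adjusted P-value = 0.000437, limma) in the Ce and -1.56 (SE 0.34, FDR-adjusted P-value = 0.0182, limma) in the St. Ifih1, a sensor of double-stranded RNA, was lower, at -1.04 (SE 0.13, FDR-adjusted P-value = 0.000106, limma) in the Ce, and Irf1, a transcription factor downstream of interferon-gamma, was at -0.61 (SE 0.16, FDR-adjusted P-value = 0.0269, limma). Over the 27 genes the median was -0.37 for the Ce and -0.18 for the St.

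Of 13 osteopontin receptors and relatives, 10 were tested and 1 passed in a region, against 7.24% of all genes. Itga4, an integrin subunit that binds osteopontin, was lower in Hi in the Ce, at -0.47 (SE 0.11, FDR-adjusted P-value = 0.0183, limma). Cd44, the other class of osteopontin receptor, was at 0.23 (SE 0.09, FDR-adjusted P-value = 0.129, limma) in the Ce and -0.02 in the St. Dmp1 and Dspp, SIBLING family genes that neighbour Spp1, did not pass or were under the filter. Dmp1 was at 0.43 (SE 0.17, FDR-adjusted P-value = 0.171, limma) in the Ce and 0.56 (SE 0.19, FDR-adjusted P-value = 0.143, limma) in the St, and its CeHi samples, at 565 to 732 normalized counts, lay above the CeCo samples, at 443 to 477. Dspp held 5.59, 4.46, 2.56 and 5.34 normalized counts in CeCo and 30.3, 32.7, 28.7 and 12.7 in CeHi. In the striatum it held between 2.10 and 3.96 in StCo and between 5.83 and 9.50 in StHi. Both regions were without overlap for Dspp, which was not tested.

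Of 7 polycystin genes, 3 were tested and 1 passed, against 7.24% of all genes in either region. Pkd2l1, a channel subunit close to Pkd2 in sequence, was lower in Hi, at -2.19 (SE 0.25, FDR-adjusted P-value = 2.36e-05, limma) in the Ce and -3.25 (SE 0.27, FDR-adjusted P-value = 8.19e-07, limma) in the St, with means of 62.5 and 13.1 normalized counts in CeCo and CeHi and 41.3 and 3.38 in StCo and StHi. Pkd1, the partner of polycystin-2 in the cilium, was at -0.15 (SE 0.07, FDR-adjusted P-value = 0.259, limma) in the Ce and 0.03 in the St. Of the other LRRC8 subunits, 3 were tested and 1 passed, against the same 7.24%. Lrrc8a, the obligatory one, was at -0.06 (SE 0.08, FDR-adjusted P-value = 0.721, limma) in the Ce and 0.09 in the St, Lrrc8c was at 0.25 (SE 0.10, FDR-adjusted P-value = 0.145, limma) and 0.05, and Lrrc8d is given above.

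Within groups, the 8 genes varied to different degrees from sample to sample. The coefficient of variation was lowest for Pkd2, at 4.90% to 9.14% over the 4 groups, and it was 48.4% for Spp1 in StHi. After the group means were taken away, the log2 values of Gbp4 and Gbp9 moved together over the 15 samples (Pearson r = 0.73), as did those of Gbp4 and Gbp11 (r = 0.65), while those of Spp1 and Gbp9 moved against each other (r = -0.68). Gbp10 was at -0.48 with Gbp9, -0.29 with Gbp4 and 0.19 with Gbp11, and Gbp9 was at 0.33 with Gbp11. These values are descriptive, as the samples share scaling and depth.

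The genes most like each of the 8 in their log2 values over the 15 samples, which fall into 4 groups, were Myh7b for Spp1 (Pearson r = 0.98), Zfp597 for Pkd2 (r = 0.91), 1500004A13Rik for Zfp33b (r = 0.99), Slfn5 for Gbp4 (r = 0.89), Gm14399 for Gbp9 (r = 0.93), Casp9 for Gbp10 (r = 0.95), Ccl28 for Gbp11 (r = 0.98) and Vti1a for Lrrc8b (r = 0.98). Iigp1 was the second most like Gbp4 (r = 0.86), and Pkd2l1 was the third most like Gbp10 (r = 0.94). The likeness follows the differences between the 4 groups and is a description.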

How the data were processed

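RNA from whole cerebellum and striatum was sequenced by the authors, aligned with TopHat2 to GRCm38 and normalized for library size with Cuffnorm 2.2.1, as the study's methods and the submitters' processing notes state (Cuffdiff is named there too). The deposited values are a signal of 1 normalized count per gene and sample, although the table is called FPKM. Low values were whole multiples of the worth of 1 fragment in 99.6% to 99.8% of cases (tolerance 0.1 fragments, up to 20 fragments), which gave each sample's depth and whole fragments.

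Genes that reached a CPM of 1 in 3 samples or more (15213) were scaled by TMM (factors 0.993 to 1.01) and fitted as log2(value + 1) with limma 3.58.1 in R 4.3.3 (trend, robust, 4 group means, all 15 samples), with Benjamini-Hochberg adjustment over all genes tested and a threshold of 0.05. P-values weigh a difference of group means against the spread between samples within groups. With a single breeding line of each type, they do not cover the spread between lines. Alternatives were edgeR 4.0.16 and DESeq2 1.42.0 on recovered fragments, other scalings, pseudocounts and filters, quality weights, each sample left out, and a replicate block. The fit was tested on simulated data.

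Ce and St samples share replicate numbers within a line, but the labels do not say that a number is a mouse. Residuals of same-numbered samples correlated at 0.171 to 0.278 in Co and at -0.0751 to 0.0513 in Hi.

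The 8 genes, the lists and the motifs were chosen with earlier results of these data known. Other genes named were those of the interval from Spp1 to Lrrc8b, those within 2 Mb of it past the threshold, up to 4 a list by the smallest adjusted P-value or highest mean, and the 3 most correlated with each of the 8. Dspp, Ifit3 and Irf9 were named after their values were seen. Positions came from RefSeq and GENCODE M21, coding sequences were aligned with mafft 7.526, and promoters came from RefSeq GRCm38.p6.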

Additional observations from a re-analysis of the deposited data

Results flagged for a closer look

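Pkd2 in CeCo replicate 1, at 2419 normalized counts, lay far from the other 3 CeCo samples, its gap to the nearest being 0.898 of the group's range; the CeHi samples were all above it. D930016D06Rik in CeHi replicate 3, at 1520 normalized counts, lay below the other 3 CeHi samples with a gap of 0.830 of the range. These were 2 of 36 groups of 4 samples looked at, and chance marks about 1 in 20 such groups. Cbln1, one of the cerebellar markers, had a line difference in the Ce that was lower than that in the St by -0.80 on the log2 scale (FDR-adjusted P-value = 0.0358, limma), being -0.28 in the Ce and 0.51 in the St, where it is expressed at a low level.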

How the results depend on the processing

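Among 552 region values of the 8 genes under alternatives, the sign changed in 13, all of them for Gbp9, which did not pass. The calls that changed were those of Zfp33b, as a mean and in Co, and of Gbp4 in Hi, given above. Between lines, 903 genes passed by limma in the Ce and 405 in the St. DESeq2 on the recovered fragments called 1389 and 709, sample quality weights called 740 in the St, and edgeR called 952 and 420. The cause was not tested. With single samples left out, the line counts ranged from 615 to 952 for the Ce and from 272 to 470 for the St. The region counts ranged from 11961 to 12258 for the mean, 11016 to 11489 in Co and 10078 to 10786 in Hi. With the replicate number within a line as a replicate block, 12240 genes differed between regions (12200 without it), 11404 in Co and 10772 in Hi, and the line counts were 902 for the Ce and 410 for the St. No call of the 8 genes changed under this block. Depth limits Gbp10 in StHi: its striatal line difference was -3.33 with 1 added, -4.88 with 0.1 added, -4.28 by edgeR and -4.48 by DESeq2.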
